A study of Mus musculus with 6 samples.

Results

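The colony-stimulating factors are secreted proteins that drive the survival, growth and maturation of macrophages and granulocytes, and their 3 mouse genes, Csf1, Csf2 and Csf3, are described here with the 5 genes of their receptors, Csf1r, Csf2ra, Csf2rb, Csf2rb2 and Csf3r. The genes were chosen by symbol, and all 8 were found among the 23282 gene entries of the deposited tables. They were followed in RAW 264.7 cells, a mouse macrophage line that forms osteoclasts, the multinucleated cells that resorb bone, when it is driven to differentiate. All 6 samples came from day 5 of osteoclast differentiation, 3 of them treated with CPN and 3 controls. The labels spell out neither CPN nor its dose, though the title of the series names the 60 kDa chaperonin, and they do not name the agent used to start differentiation or say what the control received. The labels also do not say that samples of a group came from separate cultures, so the p-values below reflect how these 6 libraries scatter, and that scatter may be technical.

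CSF1, also called M-CSF, signals through CSF1R, a receptor tyrosine kinase that marks the macrophage lineage and is required for osteoclast precursors to survive. CSF2, or GM-CSF, binds an alpha chain encoded by Csf2ra and signals through the beta chain encoded by Csf2rb, which recruits JAK2 and activates STAT5. Mice carry a further beta chain gene, Csf2rb2, whose product serves interleukin 3. CSF3, or G-CSF, drives granulocyte formation through CSF3R, a receptor that signals mainly through STAT3. GM-CSF is known to divert precursors from the osteoclast fate when it is given early.

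Each library held between 7957228 and 9713938 counts. Reads came from QuantSeq, which sequences the 3′ end of transcripts, so the counts were read per gene and levels of different genes were not ranked against each other. CPN 1 and control 3 stood apart in sparseness. Among 707 entries with a mean of 6 to 12 counts, 14.0% of values were 0 in CPN 1, 41.2% in CPN 2 and 37.8% in CPN 3, against 36.9%, 39.9% and 23.8% in control 1 to 3. The summed level of 8 macrophage markers was 1955 to 2667 CPM (counts of each gene relative to library size, scaled by the TMM method) in CPN and 1395 to 1917 CPM in control, and that of 9 osteoclast markers was 952 to 1513 CPM in CPN and 3268 to 3534 CPM in control. Of the macrophage markers 3 of 8 passed as higher and 0 as lower, beside 7.62% and 6.39% of all tested genes. Adgre1 had 104, 106 and 128 CPM in CPN against 20.8, 42 and 35.2 CPM in control. Itgam had 189, 226 and 303 CPM in CPN against 64.9, 63.7 and 53.4 CPM in control. Cd14 had 491, 270 and 210 CPM in CPN against 57.1, 137 and 90.3 CPM in control. The other macrophage markers, Aif1 and Fcgr3 among them, overlapped between groups. Cd68 had 503, 814 and 902 CPM in CPN against 837, 861 and 838 CPM in control. Ptprc had 175, 153 and 182 CPM in CPN against 170, 169 and 171 CPM in control. Of 7 tested osteoclast markers 6 passed as lower and 1 as higher. The one higher was Mmp9, a matrix protease gene, with 237, 217 and 317 CPM in CPN against 93.5, 65.6 and 102 CPM in control. These are bulk samples, in which fewer cells of a type and less RNA per cell cannot be told apart.

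Csf1 and Csf3 were read in every CPN library and in none of the controls, Csf2 was near 0 in both groups, and no receptor gene passed the test with all 6 libraries. The test was edgeR's quasi-likelihood F test over 11092 genes, with a threshold of 0.05 on the Benjamini-Hochberg adjusted p. By it, 2 of the 6 tested members were higher in CPN and 0 were lower. Over all tested genes, 14.0% passed, 7.62% higher and 6.39% lower. Both called members, Csf1 and Csf3, had entered the test through their CPN counts alone, so their number is not to be read against that share. Scaling by library totals alone gave 690 genes higher and 914 lower, where TMM gave 845 and 709. The 2 groups were fully separated for 4 of the 6 tested members, but Csf1 and Csf3, which entered through CPN, are 2 of these. Of the 4 tested receptor genes 2 were fully separated, beside 32.6% of all tested genes. Csf2 and Csf3r had too few counts to be tested.

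Csf1, on chr3:107741048-107760469 (mm10), encodes the ligand of CSF1R. It had 116, 60 and 156 counts in CPN 1 to 3, against 0 counts in each of the 3 control libraries. After scaling this was 13.9, 7.86 and 19.4 CPM in CPN, a mean of 13.7 ± 5.75 CPM (SD, n = 3), with controls at 0. The groups did not overlap, and the CPN libraries differed among themselves by 2.46-fold. Taking a floor of 3 counts in each control library, Csf1 was at least 41.0-fold higher in CPN. The edgeR adjusted p of 0.000251 belongs to the fitted difference and does not test this bound. Set against the same floor, the lowest CPN library alone was at least 23.5-fold higher. Both bounds cover counting error only. Among the 707 entries with a mean of 6 to 12 counts, 23.8% to 39.9% of values in a control library were 0. A 0 can thus stand for a level above this floor, and the true folds may be lower.

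Csf3, on chr11:98700183-98703631, encodes G-CSF. It had 246, 90 and 41 counts in CPN 1 to 3, against 0 counts in each control library. These counts were 29.5, 11.8 and 5.09 CPM in CPN, a mean of 15.5 ± 12.6 CPM (SD, n = 3). Every CPN library lay above every control, but CPN 1 held 5.80 times the level of CPN 3. Csf3 was at least 46.2-fold higher in CPN against the floor of 3 counts per control library. The lowest CPN library alone was at least 15.2-fold higher. The limit given for the bounds of Csf1 applies here too. Without CPN 1 the bound from the CPN mean fell to 4.66 on the log2 scale, from 5.53 with all libraries. The edgeR adjusted p was 0.000546 with all libraries and 0.0133 without CPN 1, and neither tests the bound. Both ligand genes passed the filter on low counts only through the CPN libraries, and each of the 37 tested genes at 0 in all controls (100%) was called.

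**Figure D1:**
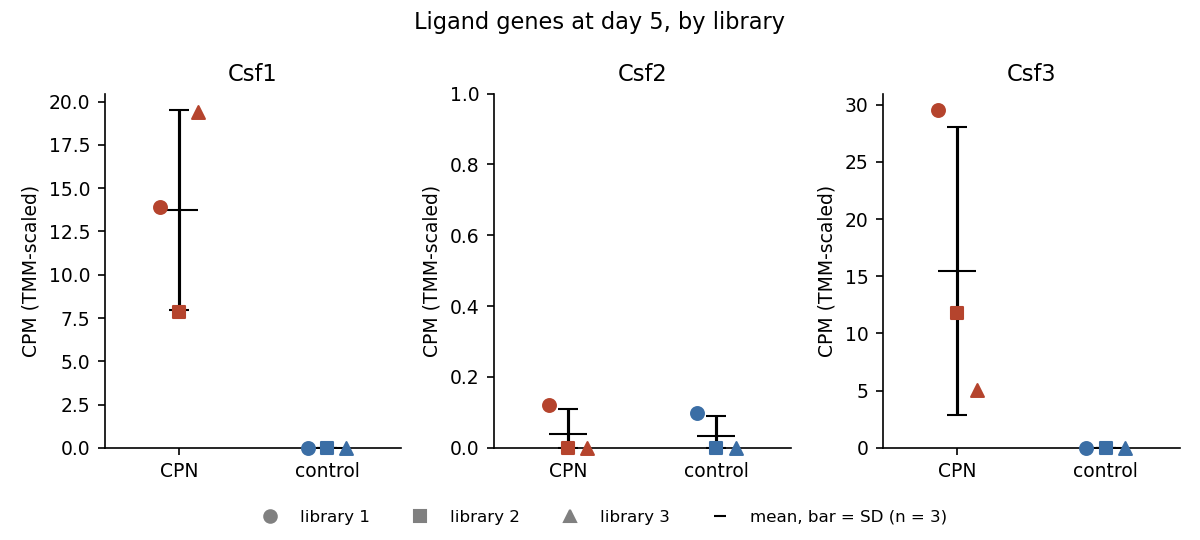
Level of each ligand gene in every library, in CPM after TMM scaling, with CPN on the left and control on the right of each panel. Horizontal lines are means and bars are SD over 3 libraries, with bars stopped at 0. Csf1 and Csf3 lie above 0 in all 3 CPN libraries and at 0 in all controls, while Csf2, drawn on an axis that ends at 1, has single counts in CPN 1 and control 1.

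Csf2, on chr11:54247270-54249899, encodes GM-CSF. It had 1, 0 and 0 counts in CPN 1 to 3 and 1, 0 and 0 counts in control 1 to 3. The floor of 3 counts was 0.294 to 0.393 CPM on the TMM scale, depending on the library, so no fold is given and no difference was detectable. The neighbouring cytokine gene Il3, 15185 bases away, had 0 counts in all 6 libraries. Il34, the gene of the other ligand of CSF1R, had 8 counts in CPN 1 and 0 in the other 5 libraries.

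The ligand genes differ in the AU-rich elements of their 3′ ends, sequences known as binding sites for proteins that speed mRNA decay. The 30 bases with the most ATTTA pentamers in the last 700 bases of each GENCODE M21 transcript are shown to compare the ligand genes. They read 5′ to 3′, with each ATTTA in capitals.
Csf3: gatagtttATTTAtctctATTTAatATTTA
Csf1: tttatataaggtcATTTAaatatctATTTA
Csf2: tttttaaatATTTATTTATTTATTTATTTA
The last 700 bases held 6 ATTTA pentamers in Csf3, 3 in Csf1 and 9 in Csf2, counting overlaps. Of 20833 mouse genes whose longest coding transcript has at least 700 bases, 1.17% held at least 6 and 0.115% at least 9, while 15.3% held at least 3. The nonamer TTATTTATT occurred 4 times in Csf2 and was not among the last 700 bases of Csf3 or Csf1, and 3.52% of transcripts held it. Among 11 genes of ARE-binding and mRNA decay factors, 1 was higher in CPN and 0 were lower, beside 7.62% and 6.39% of all tested genes, with a median log2 fold change of -0.05 against -0.01 over all tested genes. The one that rose was Zfp36, the gene of tristetraprolin, which promotes decay of such mRNAs. Any part of Zfp36 or of these elements in the levels of the ligand genes was not tested. Zfp36 had 63.4, 55.9 and 55.5 CPM in CPN against 16.7, 25.9 and 28.0 CPM in control, which is 1.31 ± 0.258 on the log2 scale (SE, edgeR adjusted p = 0.00442), and its call ended without both control 3 and CPN 1 (edgeR adjusted p = 0.0701).

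RefSeq promoters (GRCm38.p6) were matched for 5 of the 8 members, and Csf3, Csf1r and Csf2rb had no entry. A form of the NF-kB site, GGGA and TTCC with any 2 bases between them, was searched on both strands of the 250 bases before each start. Its letters were chosen after the Csf1 promoter had been read, so the match there supports nothing. It occurred once in Csf1 and once in Csf3r and was not in these windows of Csf2, Csf2ra or Csf2rb2, and 1.21% of 32851 promoters held it. The windows that hold the match are shown on the gene's own strand, with the match in capitals. Both genes had higher counts in every CPN library, though Csf3r had only 3 in CPN 1 against 2 in control 3. Csf2ra was also higher in every CPN library and held no match. A link between the match and the level of a gene was not tested.
Csf1, chr3:107760470-107760719, minus strand: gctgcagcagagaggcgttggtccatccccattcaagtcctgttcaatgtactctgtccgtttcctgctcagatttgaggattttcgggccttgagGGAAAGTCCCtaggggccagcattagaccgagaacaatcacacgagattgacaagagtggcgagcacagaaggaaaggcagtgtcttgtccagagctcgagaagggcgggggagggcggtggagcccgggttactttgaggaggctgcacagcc
Csf3r, chr4:126024409-126024658, plus strand: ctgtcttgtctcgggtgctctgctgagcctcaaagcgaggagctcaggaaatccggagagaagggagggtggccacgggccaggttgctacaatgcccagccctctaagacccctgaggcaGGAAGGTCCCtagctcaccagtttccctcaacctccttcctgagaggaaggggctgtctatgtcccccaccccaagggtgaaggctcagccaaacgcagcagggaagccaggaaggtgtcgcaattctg
The match begins 154 bases before the start used for Csf1 and 129 bases before that used for Csf3r. The Csf3r window lies inside the span of that gene, which begins at 126023441, so the start used there is an internal one. The letters GAGGAA, the core of sites for the myeloid factor PU.1, had 2 matches in Csf2ra and 1 each in Csf3r and Csf2rb2, and 23.3% of promoters held them.

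Csf1r, on chr18:61105572-61131139, encodes the receptor of CSF1. It had 717, 375 and 352 CPM in CPN 1 to 3, against 542, 610 and 735 CPM in control 1 to 3. CPN 2 and CPN 3 lay below all controls, whereas CPN 1, the least sparse library, lay within the control range, so the groups overlapped. The log2 fold change was -0.39 ± 0.246 (SE), with a 95% interval of -0.92 to 0.15, and did not pass (edgeR adjusted p = 0.362). Without CPN 1 it was -0.79 ± 0.177 and passed (edgeR adjusted p = 0.0198), and without CPN 2 or CPN 3 it was -0.23 and -0.20. Without both CPN 1 and control 3 it was -0.66 and did not pass (edgeR adjusted p = 0.117).

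**Figure D2:**
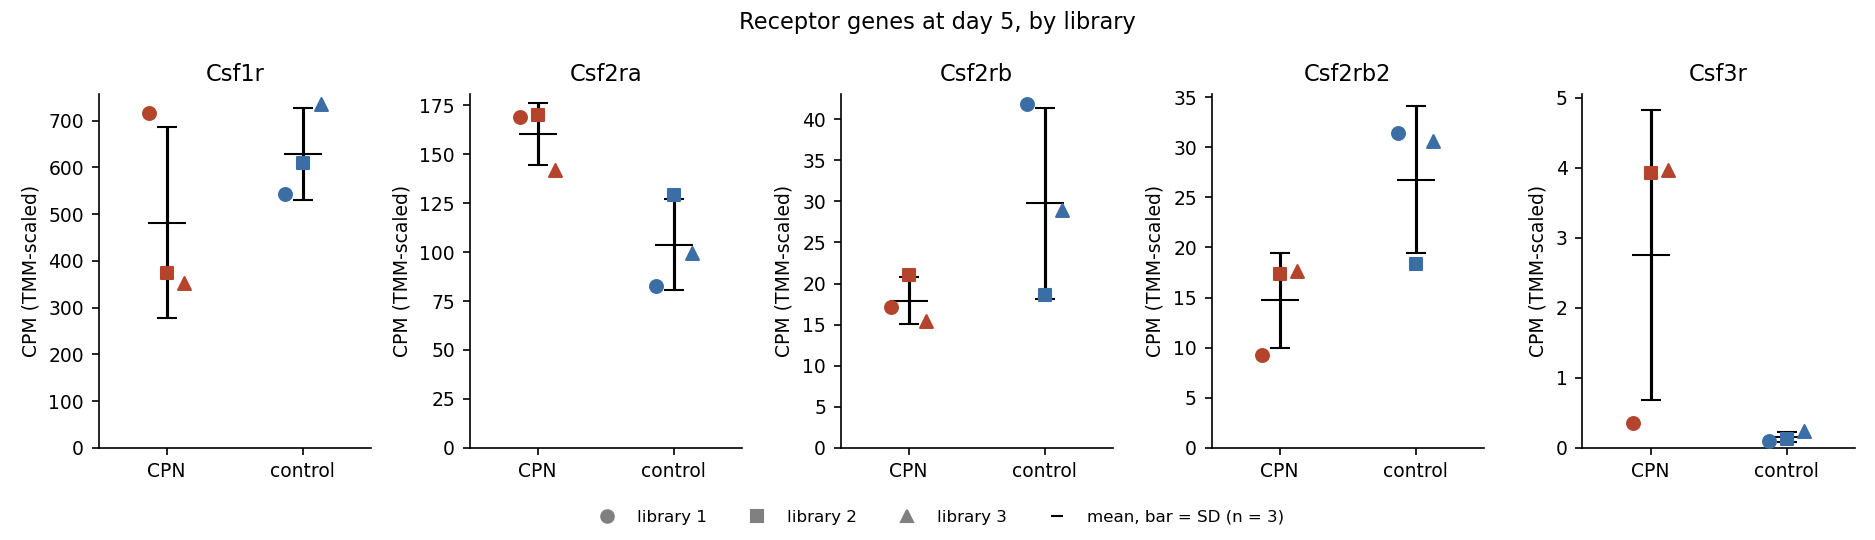
Level of each receptor gene in every library, in CPM after TMM scaling, with CPN on the left and control on the right of each panel, and means with SD over 3 libraries. Csf2ra and Csf3r are higher in every CPN library than in any control and Csf2rb2 is lower, while the groups overlap for Csf1r and Csf2rb.

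Csf2ra, on chr19:61217191-61228461, encodes the alpha chain that gives the GM-CSF receptor its specificity. It had 169, 170 and 142 CPM in CPN 1 to 3, against 82.8, 129 and 99.6 CPM in control 1 to 3. All CPN values lay above all control values, and the mean was 160.5 ± 16.3 CPM in CPN and 104 ± 23.6 CPM in control (SD, n = 3 each). The log2 fold change of 0.63 ± 0.203 (SE, 95% interval 0.19 to 1.07) did not pass (edgeR adjusted p = 0.0579). Csf2ra lay close to the threshold in this design. It passed without control 2 (log2 fold change 0.83, edgeR adjusted p = 0.00661), with no filter on low counts (edgeR adjusted p = 0.0296) and with DESeq2 (adjusted p = 0.0269), and it had an adjusted p of up to 0.356 in the other alternatives.

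Csf2rb and Csf2rb2 lie 20078 bases apart on chromosome 15, at 78325800 to 78351001 and 78282507 to 78305721, and are similar in sequence. Their first-listed GENCODE transcripts, of 4764 and 4740 bases, matched at 91.7% of 4641 aligned bases, and at 88.0% over the last 1000 bases of Csf2rb. Of the 4715 windows of 50 bases in the Csf2rb transcript, 892 (18.9%) were also found in that of Csf2rb2, but 0 of the 951 windows in its last 1000 bases were. How the authors handled reads with several alignments is not given in the sources used here, so the split between these genes is uncertain and their sum is given too. The 90 aligned bases at the end of the Csf2rb2 coding region show how differences are spaced there, with the 7 bases that differ in capitals. They were picked from the coding region, not as the 3′ ends that QuantSeq sequences.
Csf2rb: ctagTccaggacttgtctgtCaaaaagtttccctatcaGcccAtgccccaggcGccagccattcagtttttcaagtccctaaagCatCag
Csf2rb2: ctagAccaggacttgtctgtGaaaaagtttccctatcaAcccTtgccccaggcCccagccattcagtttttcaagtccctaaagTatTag
The coding region of Csf2rb2 ends with the last base shown, while that of Csf2rb runs on for 54 bases.

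Csf2rb had 17.2, 21.1 and 15.5 CPM in CPN 1 to 3, against 41.8, 18.6 and 28.9 CPM in control 1 to 3. CPN 2 lay above control 2, so the groups overlapped, and the control libraries spanned 2.25-fold. The difference of -0.73 ± 0.341 (log2, SE) did not pass (edgeR adjusted p = 0.193). For Csf2rb2 the values were 9.24, 17.3 and 17.6 CPM in CPN, against 31.4, 18.3 and 30.6 CPM in control. These did not overlap, with control 2 only just above CPN 3, and the log2 fold change of -0.86 ± 0.362 did not pass (edgeR adjusted p = 0.145). Their sum was 26.4, 38.4 and 33.1 CPM in CPN, against 73.2, 36.9 and 59.5 CPM in control, and its log2 fold change of -0.79 ± 0.281 did not pass either (edgeR adjusted p = 0.0824). The share of Csf2rb2 in the summed counts was 35.0%, 45.1% and 53.2% in CPN and 42.9%, 49.7% and 51.5% in control. These shares overlapped, and a two-sided exact permutation test over the 20 splits of 6 libraries into 3 and 3 gave p = 0.7.

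The counts of the alpha chain were also set against those of the beta chains within each library, where library scaling plays no part. The ratio of Csf2ra counts to the summed beta chain counts was 6.42, 4.44 and 4.28 in CPN 1 to 3, against 1.13, 3.51 and 1.67 in control 1 to 3. Every CPN library lay above every control, with control 2 the nearest. The mean log2 difference was 1.40 and ranged from 1.03 to 1.85 when single libraries were left out (two-sided exact permutation p = 0.1, the smallest that 3 against 3 libraries allow). Against Csf2rb alone, the beta chain of the GM-CSF receptor, the ratio was 9.87, 8.07 and 9.14 in CPN, against 1.98, 6.97 and 3.45 in control. These values did not overlap either, and the mean log2 difference of 1.31 ranged from 0.88 to 1.78 when single libraries were left out (two-sided exact permutation p = 0.1). The ratio of Csf1r to Csf2ra counts was 4.23, 2.20 and 2.49 in CPN, against 6.55, 4.71 and 7.38 in control. This ratio, too, did not overlap between groups, although Csf1r itself did, with a mean log2 difference of -1.10 (two-sided exact permutation p = 0.1, the smallest possible). These 3 ratios were chosen after the values were seen. Csf2ra, which is in each of them, was fully separated by itself, so they add no independent evidence. They compare counts of 3′ ends, not numbers of receptor molecules.

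**Figure D3:**
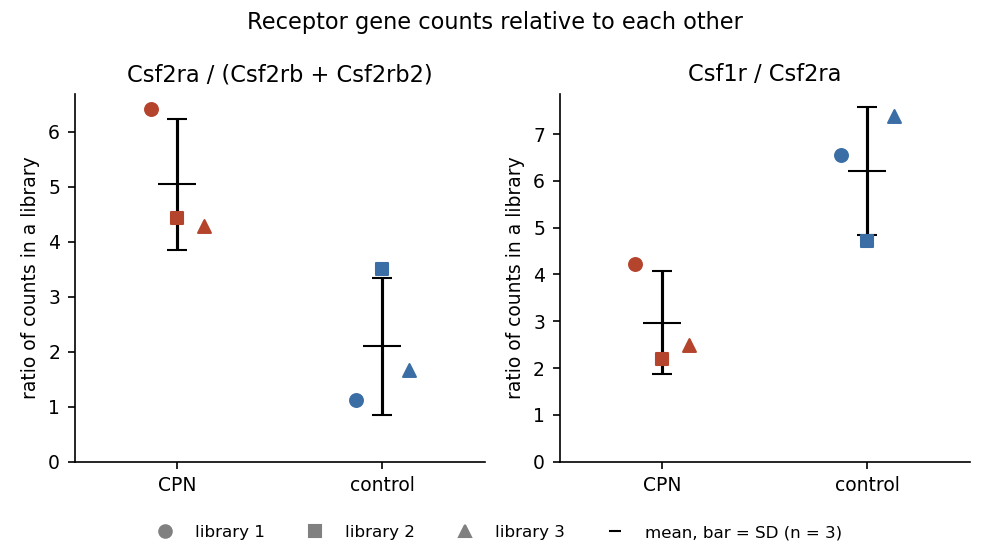
Ratios of receptor gene counts within each library, with CPN on the left and control on the right, and means with SD over 3 libraries. The ratio of Csf2ra to the beta chains is above 4 in every CPN library and below 4 in every control, and the ratio of Csf1r to Csf2ra is lower in every CPN library than in any control.

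Csf3r, on chr4:126023441-126044975, encodes the receptor of G-CSF. It had 3, 30 and 32 counts in CPN 1 to 3, against 1, 1 and 2 counts in control 1 to 3. CPN 2 and CPN 3 stood apart from the other 4 libraries, and CPN 1 had 1 count more than the highest control. The 65 CPN counts against 4 control counts gave a ratio of 18.3 after scaling, with an exact 95% interval of 6.82 to 69.3 that covers counting error only. With CPN 1 below the minimum, Csf3r was removed by the filter, and an exact two-sided permutation test on log2(CPM + 0.5) gave p = 0.1, the smallest possible. With no filter edgeR gave an adjusted p of 0.188, and DESeq2 called it higher (log2 fold change 4.21, adjusted p = 0.0304). Csf3r also entered the edgeR test when some libraries were left out, and did not pass. The edgeR adjusted p was 0.0888 without CPN 1, and 0.238, 0.147 and 0.206 without control 1, 2 and 3. Granulocytes are known to carry this receptor, and of their markers S100a8 had 156, 264 and 144 counts in CPN against 0, 0 and 1 in control. The other measured granulocyte markers had at most 6 counts in any library, and Elane, Camp and Ngp had 0 throughout. The part of such cells in the counts of Csf3r was not tested.

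**Figure D4:**
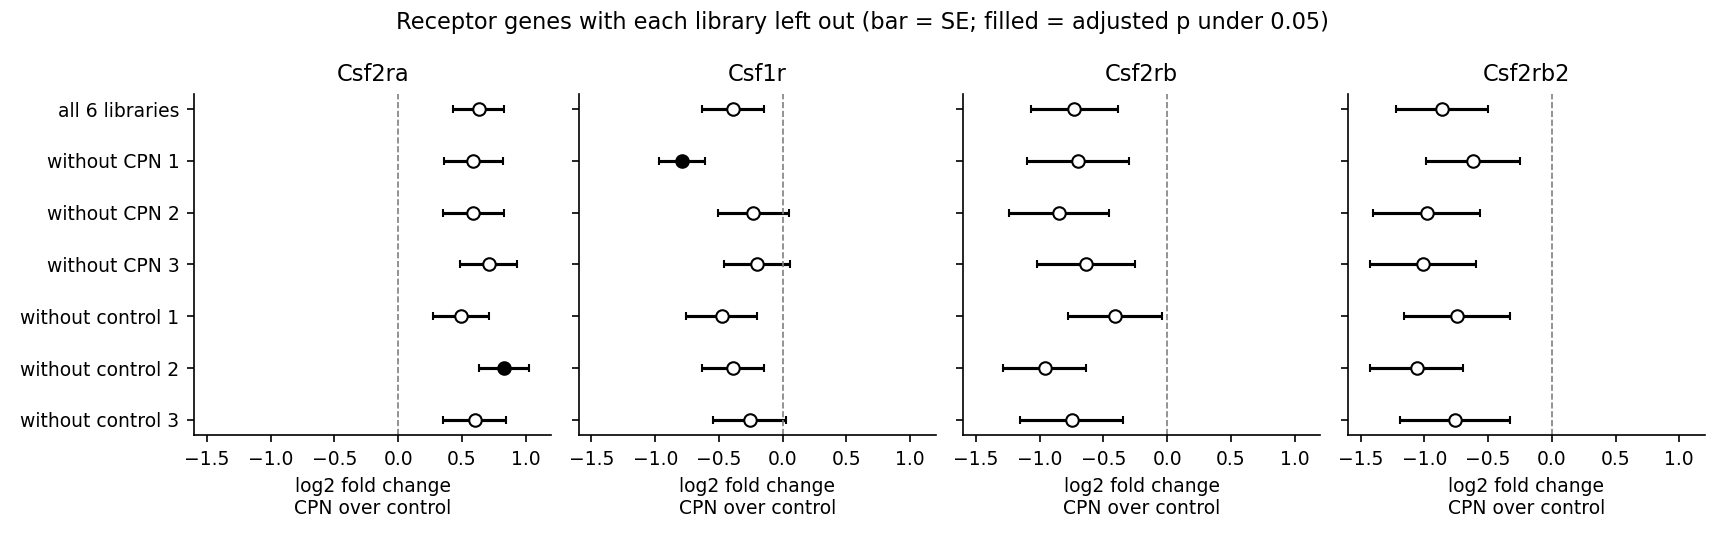
Log2 fold change of CPN over control for the 4 tested receptor genes, with all 6 libraries in the top row and each library left out in turn below it. Points are edgeR estimates, bars are SE, and filled points passed an adjusted p of 0.05. Csf2ra is positive and the others are negative in every row, and the rows that pass are Csf2ra without control 2 and Csf1r without CPN 1.

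Genes whose levels over the 6 libraries were most like those of each tested member were found by the root mean square difference between centred log2 CPM profiles, leaving out unnamed gene models. For Csf1 these were Dcn, Ptges and Cxcl3, at differences of 0.247, 0.343 and 0.513 log2 units. Dcn, which encodes the matrix proteoglycan decorin, had 94, 59 and 98 counts in CPN 1 to 3 and 0 in every control. Stromal cells are a known source of CSF1, and Dcn was on the list of 7 fibroblast and stromal markers. Their summed level was 12.2 to 20.4 CPM in CPN and 0 to 6.23 CPM in control. Of the others, Lum had 11, 63 and 0 counts in CPN and 0 in every control, Col1a1 had 7, 21 and 0 counts in CPN against 0, 37 and 0 in control, and Pdgfrb had 14 counts in CPN 1 and 0 elsewhere. Col3a1 had 0, 13 and 0 counts in CPN and 0, 13 and 0 in control, while Col1a2 and Pdgfra had 0 in CPN and 2 counts each in 1 control. The part of such cells in the level of Csf1 was not tested. For Csf3 the nearest genes were Tarm1, Agpat9 and Il23a, at 0.499, 0.501 and 0.521 log2 units. Il23a, which encodes the p19 subunit of interleukin 23, had 16.9, 4.32 and 3.72 CPM in CPN and 0 in every control. Tarm1, the nearest, had 14.5, 14.5 and 7.94 CPM in CPN and 0 in every control. All of these genes were picked for their likeness to a member, so a shared pattern is no further support.

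For the receptor genes the nearest profiles lay closer. Chtf8, Dnase1 and Gtf2f1 came within 0.0934 to 0.109 log2 units of Csf1r. In each of them CPN 1 was higher than CPN 2 and CPN 3, which follows from how they were picked. Gtf2f1, which encodes a subunit of a general transcription factor, had 52.6, 26.3 and 24.6 CPM in CPN, against 35, 50.6 and 55.4 CPM in control. The nearest gene to Csf2ra was Ascc3 (0.0481), that to Csf2rb was Fkbp4 (0.108) and that to Csf2rb2 was Ttc39aos1 (0.121). None of the members overlaps another measured gene in RefSeq. Med24, 965 bases from Csf3, had 140, 128 and 89 counts in CPN against 185, 67 and 75 in control. Hmgxb3, 137 bases from Csf1r, differed by 0.75 on the log2 scale and did not pass (edgeR adjusted p = 0.122). The nearest measured gene to Csf1 on its left, Ahcyl1, was higher in CPN, by 0.83 on the log2 scale (edgeR adjusted p = 0.00764).

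Among 85 tested genes of 99 in 7 lists around these receptors, 16 were higher in CPN and 10 lower, beside 7.62% and 6.39% of all tested genes. Without CPN 2 there were 6 lower genes, and without control 3 there were 4. The median log2 fold change of the lists was -0.05, against -0.01 over all genes. Of the related ligands and receptors, Flt3l and Kitl could be tested and did not pass. The genes Il3ra, Il5, Kit, Flt3 and Ptprz1 had 0 counts in every library.

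Of 23 tested kinases and adaptors that act next to the receptors, 2 rose and 2 fell, counts near the 7.62% and 6.39% of all tested genes, with a median log2 fold change of 0.01. Jak2, the kinase bound by the common beta chain, had 59.4, 26.5 and 43.8 CPM in CPN, against 8.53, 13.2 and 11.9 CPM in control. It rose 3.86-fold (edgeR adjusted p = 0.00229). Gab2, a docking protein for PI3-kinase and SHP2, rose 3.02-fold (edgeR adjusted p = 0.00304). Tyrobp, the adaptor DAP12 that takes part in CSF1R signalling in osteoclast precursors, fell by 0.72 ± 0.149 on the log2 scale (SE, edgeR adjusted p = 0.00602). Its values were 423, 423 and 507 CPM in CPN, against 757, 728 and 744 CPM in control. Pik3cd, the leukocyte PI3-kinase subunit, fell 2.38-fold (edgeR adjusted p = 0.0117), and that call ended without control 1 or control 3 (edgeR adjusted p = 0.0558 and 0.0507). The number of lower genes in this list was then 1.

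Among 14 tested inhibitors and turnover genes, 1 rose and 3 fell, beside 7.62% and 6.39% of all tested genes. The median of this list was -0.37. Socs3, the feedback inhibitor of G-CSF receptor signalling, had 57.8, 52.9 and 67.5 CPM in CPN, against 5.30, 14.6 and 8.65 CPM in control, and rose 6.26-fold (edgeR adjusted p = 0.000279). Ptpn6, which encodes the phosphatase SHP-1, fell 2.16-fold, Inpp5d, which encodes SHIP1, fell 1.94-fold, and Sla, an adaptor that promotes receptor degradation, fell 2.64-fold (edgeR adjusted p = 0.00309, 0.0113 and 0.0217). The calls of Inpp5d and Sla ended without control 3, and that of Sla also without control 1, CPN 2 or CPN 3, so that 1 gene was lower without control 3. Cish, a STAT5 target and inhibitor, was too low to test, with 12, 12 and 2 counts in CPN and 0 in every control.

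STAT factors and STAT5-responsive genes gave 6 higher and 1 lower of 12 tested, beside 7.62% and 6.39% of all tested genes. Their median log2 fold change was 1.04, and the list was chosen with earlier results of these data known. Pim1, a kinase gene induced by STAT5 and STAT3, had 68.2, 105 and 64.1 CPM in CPN, against 9.12, 17 and 13.4 CPM in control, and rose 6-fold (edgeR adjusted p = 0.000113). Pim2 rose 9.19-fold and Stat3 rose 2.07-fold (edgeR adjusted p = 0.00468 and 0.00524). Bcl2l1, which encodes BCL-XL, Osm, which encodes oncostatin M, and Id2 also rose. Those 3 calls ended without CPN 2, which left 3 higher genes, and each of them ended on leaving out at least 1 other library. The call of Id2 also ended with library totals alone (log2 fold change 0.98, edgeR adjusted p = 0.0534). Without control 2 the log2 fold change of Osm was 3.58, against 2.81 with all libraries. Mcl1, a survival gene, had 396, 360 and 392 CPM in CPN, against 694, 689 and 718 CPM in control, and fell by 0.87 on the log2 scale (edgeR adjusted p = 0.00143). Stat5a and Stat5b had log2 fold changes of -0.09 and 0.39 and did not pass.

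**Figure D5:**
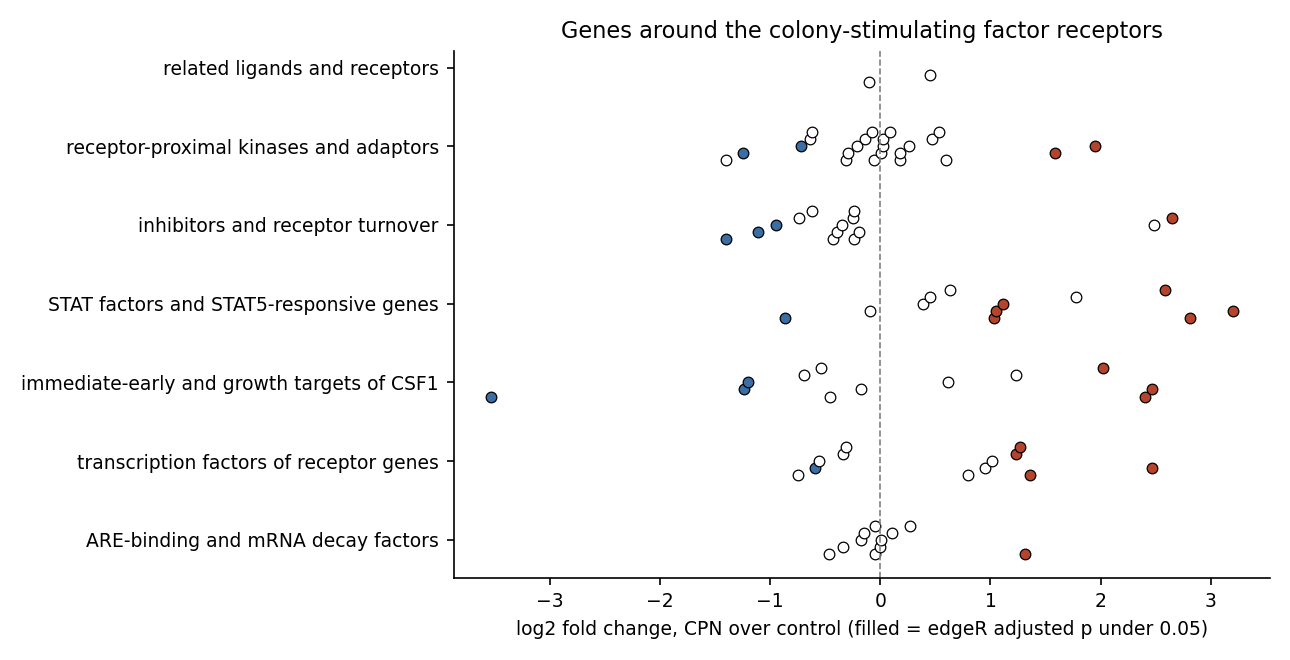
Log2 fold change of CPN over control for every tested gene of the 7 lists, one list per row, with points spread vertically for visibility. Filled red points were higher and filled blue points lower at an edgeR adjusted p of 0.05. The row of STAT factors and STAT5-responsive genes holds 6 red points, and Egr2, at -3.54, is the lowest point of the plot. All lists were chosen with earlier results of these data known.

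Of 12 immediate-early and growth genes known to respond to CSF1, 3 rose and 3 fell, beside 7.62% and 6.39% of all tested genes. The median of this list was -0.32. Ier3 rose 5.29-fold and Ets2, a target of CSF1R signalling through RAS, rose 5.53-fold (edgeR adjusted p = 5.02e-05 and 0.00144). Ets2 had 220, 179 and 167 CPM in CPN, against 27.1, 61.9 and 13.3 CPM in control, and without control 2 its log2 fold change was 3.23 in place of 2.47. Egr2, a zinc-finger transcription factor gene, had 4.68, 1.57 and 2.36 CPM in CPN, against 32.6, 36.4 and 31.9 CPM in control. It fell 11.6-fold (edgeR adjusted p = 0.000158). Plau, the urokinase gene, fell 2.30-fold (edgeR adjusted p = 0.0111), and Fos also fell. The calls of Plau and Fos each ended without CPN 1, CPN 2 or control 3, which left 1 lower gene. Ccnd2 rose, with a log2 fold change of 2.02 that was 2.78 without control 2, and its call ended without CPN 1, CPN 3, control 1 or control 3.

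Transcription factors known to act on the receptor genes gave 4 higher and 1 lower of 12, beside 7.62% and 6.39% of all tested genes. The median of this list was 0.87. Cebpb had 99.8, 146 and 106 CPM in CPN, against 40, 52.3 and 44.4 CPM in control, and rose 2.57-fold (edgeR adjusted p = 0.00118). Cebpd rose 2.34-fold (edgeR adjusted p = 0.00285), and Irf8 and Ets2 were the others that rose. Irf8 had a log2 fold change of 1.27, and its call ended without CPN 1, CPN 2, control 1 or control 3, with library totals alone and with the replicate block. Spi1, which encodes PU.1, an activator of Csf1r, had 228, 184 and 179 CPM in CPN, against 307, 313 and 270 CPM in control. It fell by 0.59 ± 0.169 on the log2 scale (SE, edgeR adjusted p = 0.0334), and 0 genes of this list were lower without CPN 2, CPN 3, control 1 or control 3 (edgeR adjusted p of Spi1 up to 0.135).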

How the data were processed

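Gene expression was measured in 3 CPN and 3 control samples of RAW 264.7 cells. Per the labels' protocols, QuantSeq libraries were made from TRIzol-extracted total RNA. The authors deposited raw counts by gene symbol for each sample. The submitters' processing notes name Bowtie2, bedtools and mm10. The annotation, strand setting and handling of reads with several alignments were not stated there. Of 23282 entries, 79 shared a symbol and were kept apart.

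The test was run with edgeR 4.0.16 under R 4.3.3 (TMM scaling, filterByExpr with a minimum count of 10 and total of 15, quasi-likelihood test, Benjamini-Hochberg adjustment over 11092 genes). The SE is the log2 fold change divided by the square root of F, and 95% intervals use the degrees of freedom of that test. Bounds take a 0 as fewer than 3 counts. The text names all 8 members, up to 4 genes of smallest p per list, the 3 most similar genes and nearest neighbours per tested member, and markers. Other genes that passed in a list, and genes with few counts, were named after their values were seen. The members and lists were chosen with earlier results of these data known. The labels do not say that replicate numbers pair the samples, so no block was used. Alternatives included DESeq2 1.42.0. Code was tested on simulated data. Sequences came from GENCODE M21 and RefSeq (GRCm38.p6).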

Additional observations from a re-analysis of the deposited data

How the results depend on the processing

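Csf1 and Csf3 were called in every alternative run, which is no sign of stability, since all 37 tested genes at 0 in every control were called. The 4 tested receptor genes kept their direction in each. DESeq2 called 4 members higher, adding Csf2ra and Csf3r, and with single libraries left out 2 to 3 members were higher and 0 to 1 lower. Over all genes, leaving out single libraries gave 525 to 1131 higher and 359 to 823 lower, and leaving out both control 3 and CPN 1 gave 273 and 173. In the 7 lists, that last choice left 6 higher and 3 lower genes, and single libraries left 12 to 16 higher and 4 to 11 lower. It also ended the calls of Gab2, Jak2, Pim2, Stat3, Tyrobp and Zfp36 (edgeR adjusted p up to 0.135). With the replicate number as a block, 748 genes were higher and 578 lower, 2 members were higher and 0 lower. Same-numbered CPN and control samples had correlations of deviations of -0.0508, 0.0195 and 0.0276. These show no pairing by number, but so few libraries cannot exclude it. The block ended the calls of Spi1 (edgeR adjusted p = 0.0569) and Irf8. Summing Csf2rb with Csf2rb2 and removing Rn45s were chosen after the data were seen and changed no call of a member. Where controls were at 0, depth limits a fold to its bound, which covers counting error only.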
